A study of Mus musculus with 4 samples.

Results

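The 9 genes described here, Pax6, Emx1, Emx2, Otx1, Otx2, Six3, Gsx1, Gsx2 and Nkx2-1, encode homeobox transcription factors that divide the embryonic forebrain into regions. They were chosen by name, and every probe set whose platform annotation names 1 of them and no other gene was taken, which gave 16 of 45037 probe sets. A probe set is a group of short probes for 1 or more transcripts, and its value is a fluorescence intensity. All 9 genes had at least 1 probe set bright enough to be tested, among 12952 genes tested in all. The samples were neuroepithelial cells, the dividing precursors of neurons and glia, from the telencephalon of ICR mouse embryos. In the first group of 2 arrays the cells were taken at embryonic day 11.5 (E11.5) and cultured for 1 day. In the second group of 2 arrays they were taken at embryonic day 14.5 (E14.5) and cultured for 4 days, so age and time in culture cannot be told apart. Both groups were grown with 10 ng/ml basic FGF on dishes coated with polyornithine and fibronectin, and carried no transgene or deletion that the labels name. How many embryos gave each culture, and whether the 2 arrays of a group were separate cultures, is not given in the labels. Each p-value thus rests on array-to-array spread alone, and that spread may be technical.

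Homeobox factors share a DNA-binding homeodomain, and in the forebrain each marks a territory. Pax6, Emx1 and Emx2 are expressed in progenitors of the pallium, the dorsal part that forms the cerebral cortex, where Pax6 and Emx2 run in opposed gradients and set the map of cortical areas. Gsx1 and Gsx2 act in the ganglionic eminences of the subpallium, the ventral part that forms the striatum and the cortical interneurons, and Nkx2-1 specifies its medial eminence. Otx1 and Otx2 define the forebrain and midbrain against the hindbrain, and Six3 is required for the most anterior neural plate and the eyes.

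Most of these factors were lower in the E14.5 cells, and 1 of them was higher. On the brightest tested probe set of each gene, 6 of 9 fell (Pax6, Emx1, Emx2, Otx1, Otx2 and Nkx2-1), Gsx1 rose, and Six3 and Gsx2 did not pass the test. Of these, Nkx2-1 was bright enough to be tested only through its E11.5 signals, and Gsx1 only through its E14.5 signals. The test was limma's moderated test of log2(scaled signal + 12.8), with Benjamini-Hochberg adjustment over 27022 probe sets and a threshold of 0.05. All differences are log2 values, E14.5 minus E11.5, given with their SE (n = 2 arrays per group). Of all 12952 genes, 13.6% were called lower and 14.3% higher by the same rule, 27.8% together. The median difference was -0.83 over the 9 genes and 0.03 over all genes tested. The groups did not overlap for 7 of the 9 genes, against 65.6% of all genes. Among the 13 tested probe sets of the 9 genes, 8 were lower, 1 was higher and 4 did not pass, against 12.6% lower and 11.1% higher over all tested probe sets.

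Since the arrays were brought to 1 common trimmed mean, higher and lower mean a change against the bulk of the probe sets. The E14.5 arrays were the dimmer ones as deposited, with trimmed means of 103 to 154 against 187 to 252 for E11.5. In the values as deposited the median of all genes moved by -0.70, and the share of calls that were higher went from 51.3% to 10.5%. The counts of 6 lower and 1 higher among the 9 genes were the same there. Progenitor markers had 4 of 9 members higher (Sox2, Fabp7, Hes5 and Notch1), 1 lower (Sox1, -1.49 ± 0.22) and 4 that did not pass (Nes, Vim, Prom1 and Msi1). Nes had mean scaled signals of 744 (E11.5) and 943 (E14.5) and Sox2 of 2730 and 4143. Neuronal markers were lower for 11 of 11 genes, with summed scaled signals of 15540 to 16100 at E11.5 against 2828 to 3286 at E14.5. Astrocyte markers were higher for 7 of 8 (2761 to 3057 against 11483 to 15560), and microglial markers for 7 of 8 measured (212 to 278 against 1634 to 1679). Gfap, Aqp4, S100b, C1qa, C1qb, C1qc and Ptprc were bright enough to be tested only through E14.5, which favoured a rise in advance. Over all genes 14.3% were called higher and 13.6% lower. In such mixed cells, fewer cells of a type and less RNA per cell cannot be told apart, and the part of these shifts in the results below was not tested.

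**Figure D1:**
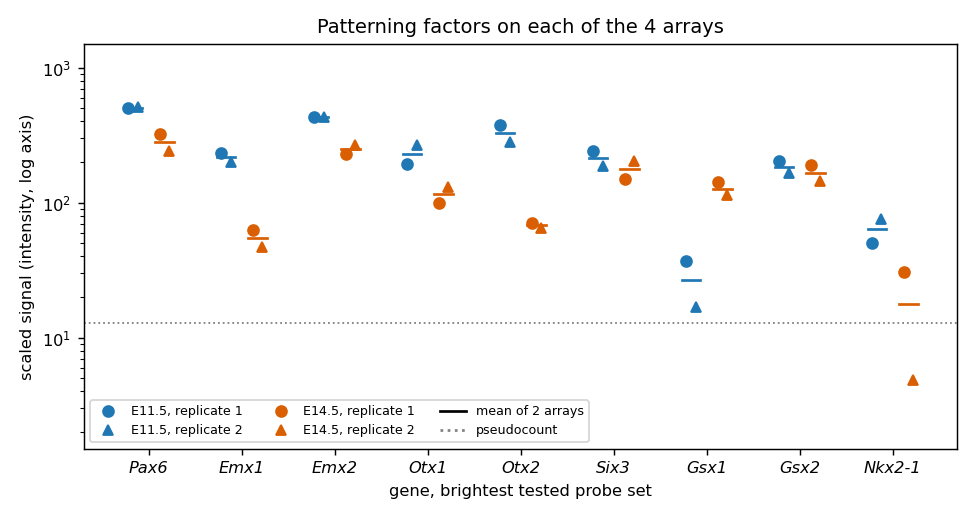
Scaled signal (log axis) of the brightest tested probe set of each of the 9 genes on each array, with a line at the mean of the 2 arrays of a group and a dotted line at the pseudocount of 12.8. The E14.5 points lie below the E11.5 points for 6 genes and above them for Gsx1, and the groups overlap for Six3 and Gsx2; heights are not to be compared between genes, since each probe set has its own response.

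Among the pallial factors, Pax6 was lower at E14.5 on its brightest probe set. Pax6 is a paired-box and homeobox factor that keeps dorsal progenitors dividing and drives them towards glutamatergic neurons. Probe set 1419271_at read 503 and 511 at E11.5, then 323 and 243 at E14.5. The E11.5 arrays differed from each other by 0.02 on the log2 scale and both lay above both E14.5 arrays, a difference of -0.83 ± 0.17 (limma, adjusted p = 0.0061). Pax6 has 5 probe sets, and they did not all show the same. Probe set 1452526_a_at went from 264 and 268 to 88.1 and 78.8, which is a larger difference of -1.54 ± 0.19 (limma, adjusted p = 0.00029). The dim probe set 1425960_s_at went from 41.4 and 58.9 to 15.2 and 3.14 (-1.56 ± 0.42, limma adjusted p = 0.022). For 1437816_at the groups overlapped, with 43.5 and 36.7 against 49.1 and 40.1, and the difference of 0.12 ± 0.30 did not pass (95% interval -0.56 to 0.79). The last, 1456342_at, lay under the filter, with 19.2 and 23.4 at E11.5 and 12.3 and 47.6 at E14.5. The E14.5 mean of 1425960_s_at, 9.15, lay below the pseudocount, and its mean of 29.7 over the 4 arrays was above the filter of 27.3 only through E11.5, so it adds no separate support.

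Emx1, which is expressed in the cortical part of the pallium, fell as well. Its probe set 1441777_at read 233 and 201 at E11.5 and 62.9 and 46.7 at E14.5, a ratio of group means of 3.96 in favour of E11.5. The gap between the groups was wider than the 0.20 and 0.35 (log2) between arrays of 1 group, and the difference was -1.77 ± 0.22 (limma, adjusted p = 0.00034). A second probe set of Emx1, 1444216_at, had 48.2 and 40.3 at E11.5 and only 1.42 and 1.86 at E14.5. Its mean over the 4 arrays put it under the filter; in the fit without a filter, over 45037 probe sets, its difference was -1.98 ± 0.32 (limma, adjusted p = 0.0093). Both E14.5 signals were far below the pseudocount of 12.8, which sets the size of that difference.

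Emx2, the paralogue of Emx1 that is highest in the caudal and medial pallium, also fell, from 433 and 434 to 228 and 269 on its only probe set, 1456258_at. The E11.5 arrays were nearly equal, both above both E14.5 arrays, and the difference was -0.78 ± 0.16 (limma, adjusted p = 0.0058). On each array the log2 signal of Emx1 minus that of Emx2 was -0.86 and -1.06 at E11.5 and -1.67 and -2.24 at E14.5, so the 2 changed unequally on these probe sets, by -0.99. An exact permutation test of such a change, two-sided over 4 arrays, cannot go below p = 0.333, and it gave that value for each of the 3 paralogue pairs compared, also after Benjamini-Hochberg adjustment. That Emx1 fell further than Emx2 is therefore a description of these arrays.

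The factors of the anterior brain that are not tied to the dorsal or the ventral side were lower for Otx1 and Otx2 and did not pass for Six3. Otx2, which is needed to form the forebrain and later marks the choroid plexus and the dorsal midline, went from 375 and 280 at E11.5 to 70.3 and 65.4 at E14.5 on probe set 1425926_a_at. The ratio of means was 4.83, and the difference was -2.06 ± 0.21 (limma, adjusted p = 8.5e-05). On this scale it was the largest fall among the brightest probe sets of the 9 genes, while by the ratio of means the dim probe sets 1444216_at of Emx1 (27.0) and 1425960_s_at of Pax6 (5.48) stood above it. The groups lay far apart and the E14.5 arrays differed from each other by 0.09 on the log2 scale. Since Otx2 is also a choroid plexus gene, the other markers of that tissue were read beside it. Of 10 markers on the array 6 were measured, none passed the test (1 had an unadjusted p under 0.05), and their summed scaled signal ran from 337 to 411 at E11.5 and from 246 to 349 at E14.5. Folr1 had -1.06 ± 0.35 (limma, adjusted p = 0.051), and Ttr, the transthyretin that defines this tissue, had -1.01 ± 0.54 on its brightest probe set, with 40.2 and 54.6 against 43.5 and 2.89. Folr1 was called lower in the values as deposited (-1.55), with the larger pseudocount (-0.64), without the variance trend, with probe sets averaged, with a replicate block (each -1.06) and without E14.5 replicate 1 (-1.34). Ttr was called lower in the values as deposited (-1.39) and without E14.5 replicate 1 (-1.93). The other probe sets of Ttr lay under the filter, and 1451580_a_at read between 3.91 and 6.84 on all 4 arrays. Clic6 (-0.19 ± 0.27), Msx1 (-0.15 ± 0.23), Lmx1a (0.20 ± 0.38) and Kcnj13 (0.14 ± 0.41) did not pass either, and the part of such cells in the fall of Otx2 was not tested.

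Otx1, the relative of Otx2 that is expressed in cortical progenitors and deep-layer neurons, read 192 and 268 at E11.5 and 100.3 and 131 at E14.5 on probe set 1437601_at. Both E11.5 arrays lay above both E14.5 arrays, though the E11.5 arrays differed by 0.45 (log2), and the difference was -0.91 ± 0.22 (limma, adjusted p = 0.014). The call rested on E11.5 replicate 2: without it the difference was -0.68 (adjusted p = 0.077), and without the trend of variance on signal the adjusted p was 0.060. The log2 signal of Otx1 minus that of Otx2 was -0.92 and -0.06 at E11.5 and 0.44 and 0.88 at E14.5, a change of 1.16 (exact permutation p = 0.333, the smallest possible).

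**Figure D2:**
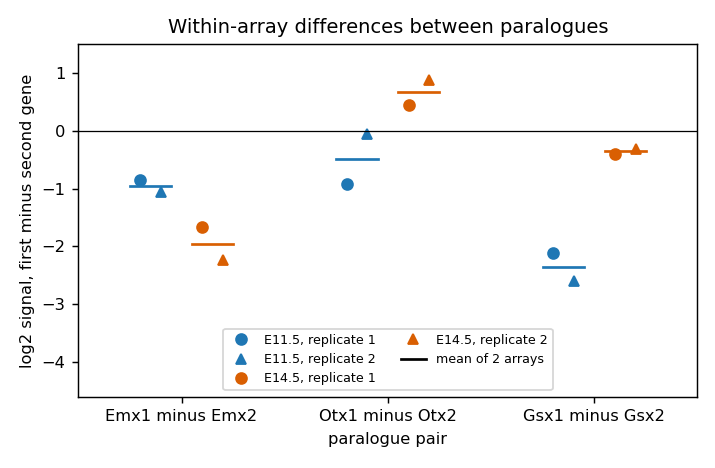
Log2 signal of the first gene minus that of the second on each array, for the 3 paralogue pairs, with a line at the mean of each group. All 3 pairs separate the E11.5 from the E14.5 arrays, with changes of -0.99 for Emx1 minus Emx2, 1.16 for Otx1 minus Otx2 and 1.99 for Gsx1 minus Gsx2; the level of 0 has no meaning, because probe sets differ in response.

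Six3, which represses Wnt signals in the anterior neural plate, did not pass on any tested probe set. On the brightest, 1427523_at, the groups overlapped, with 240.2 and 186 at E11.5 and 151 and 202 at E14.5 (-0.26 ± 0.21, limma adjusted p = 0.43, 95% interval -0.72 to 0.21). The interval leaves room for a fall as large as 0.72 on the log2 scale. Probe set 1426638_at pointed the other way, with 9.20 and 26.8 against 37.1 and 50.2, and did not pass after adjustment (0.93 ± 0.40, limma adjusted p = 0.13). Probe set 1426637_a_at, designed on the same transcript record, was under the filter at 3.84 and 16.1 against 3.41 and 1.81. Averaged over its tested probe sets, the difference of Six3 was 0.33, so its direction depends on the probe set.

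Among the ventral factors the 3 genes gave 3 different results. Gsx1, expressed in progenitors of the ganglionic eminences, read 37.0 and 16.9 at E11.5 and 141 and 113 at E14.5 on probe set 1450002_at. Both E14.5 arrays were above both E11.5 arrays, and the mean was 4.72 times higher at E14.5. The difference was 1.86 ± 0.31 (limma, adjusted p = 0.0019), and it stayed between 1.25 and 2.26 under the 13 alternatives tried, past the threshold in each. Its size depends on the pseudocount, since the E11.5 signals were near 12.8. Oligodendrocyte precursor markers rose beside it, for 7 of 7 genes, against 14.3% higher over all genes. Their summed scaled signal ran from 682 to 902 at E11.5 and from 18286 to 20205 at E14.5. Among them Cspg4 and Gpr17 were bright enough to be tested only through E14.5, and Olig1 and Olig2 also stand in the subpallial list below. The part of these markers in the rise of Gsx1 was not tested.

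Gsx2, which patterns the lateral eminence and whose loss Gsx1 can partly make up for, had 202 and 166 at E11.5 and 189 and 144 at E14.5 on probe set 1421601_at. The groups overlapped, and the difference was -0.14 ± 0.20 (limma, adjusted p = 0.69). The 95% interval of -0.59 to 0.32 holds changes in either direction. On each array the log2 signal of Gsx1 minus that of Gsx2 was -2.11 and -2.59 at E11.5 and -0.39 and -0.32 at E14.5, a change of 1.99, the widest of the 3 pairs (exact permutation p = 0.333, the smallest possible).

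Nkx2-1, the factor that specifies the medial ganglionic eminence, read 50.6 and 75.9 at E11.5 and 30.4 and 4.88 at E14.5 on probe set 1422346_at. The E14.5 arrays differed from each other by 1.29 (log2), nearly as much as the groups, though both lay below both E11.5 arrays. The difference of -1.44 ± 0.45 passed narrowly (limma, adjusted p = 0.042). The call was lost without E11.5 replicate 2 (-1.20, adjusted p = 0.20) and without E14.5 replicate 2 (-0.79, adjusted p = 0.15). It was also lost when dim probe sets were kept, when the variance trend was left out (both at -1.44), and with a pseudocount of an eighth of the size (-2.14, adjusted p = 0.066). With a pseudocount raised to the overall median signal, 42.0, the difference was -0.84 and the adjusted p 0.031.

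**Figure D3:**
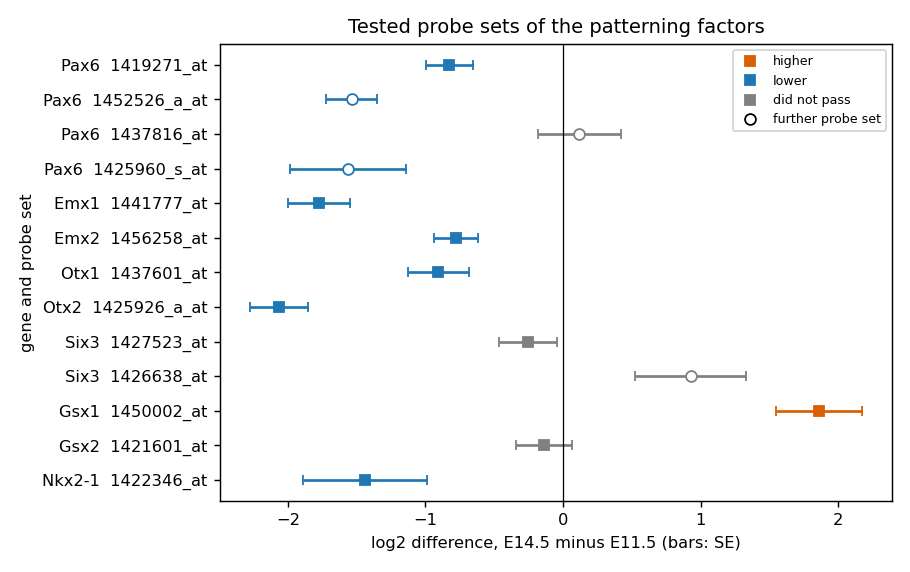
Log2 difference, E14.5 minus E11.5, with its SE for the 13 tested probe sets of the 9 genes; squares are the brightest probe set of a gene, open circles its further probe sets, and colour gives the limma call. The 3 called probe sets of Pax6 lie left of 0 and 1437816_at at 0.12, while the 2 of Six3 lie on either side of 0.

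**Figure D4:**
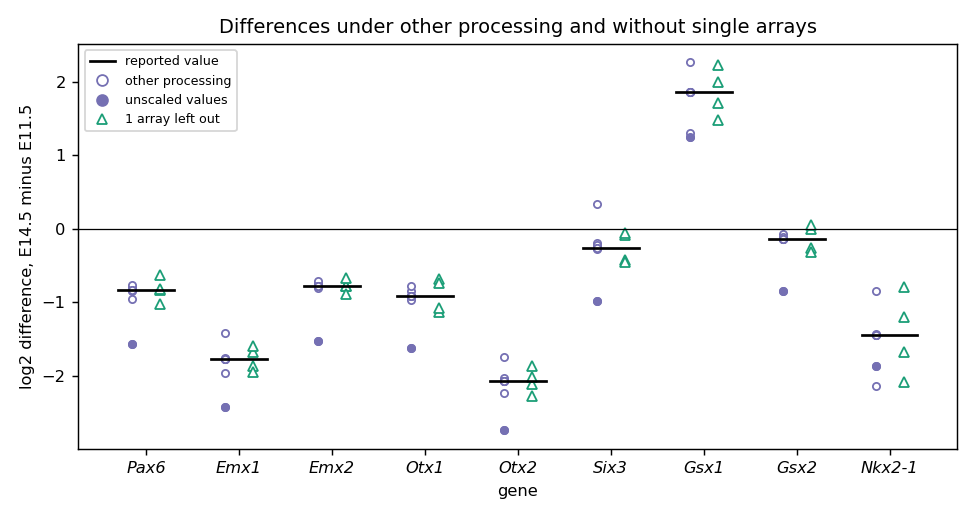
Log2 difference of each of the 9 genes as reported (line), under other processing (circles, with the unscaled values filled) and without each array in turn (triangles). The values of Pax6, Emx1, Emx2, Otx1, Otx2 and Nkx2-1 stay below 0 and those of Gsx1 above it, while Six3 and Gsx2 cross 0.

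The start regions of these genes were read beside the falls and the rise. RefSeq promoters of mouse build GRCm38.p6, from 250 bases before to 50 after a start, were matched by symbol for 8 of the 9 genes, with 12 starts in all: 4 for Otx2, 2 for Pax6 and 1 for each of the others. The arrays do not tell which start was used. 4 are printed here: those of Otx2 and Emx2, which fell and hold the letters TAATTA, and Gsx1 and Gsx2, the paralogues with the widest change between them. TAATTA is the core bound by many homeodomains and reads the same on both strands, and it is in capitals.
Otx2, chr14:48665060-48665359, minus strand: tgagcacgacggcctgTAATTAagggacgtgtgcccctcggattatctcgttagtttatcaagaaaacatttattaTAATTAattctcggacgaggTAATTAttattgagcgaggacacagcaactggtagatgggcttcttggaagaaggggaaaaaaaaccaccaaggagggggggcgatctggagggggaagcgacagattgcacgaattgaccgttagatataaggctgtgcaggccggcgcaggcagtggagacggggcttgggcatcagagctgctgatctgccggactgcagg
Emx2, chr19:59458440-59458739, plus strand: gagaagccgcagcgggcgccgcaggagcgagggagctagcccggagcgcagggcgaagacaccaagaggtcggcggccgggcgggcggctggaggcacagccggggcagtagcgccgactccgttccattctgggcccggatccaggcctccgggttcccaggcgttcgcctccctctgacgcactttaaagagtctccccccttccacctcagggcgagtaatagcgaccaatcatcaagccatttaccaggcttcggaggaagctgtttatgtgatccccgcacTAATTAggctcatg
Gsx1, chr5:147188446-147188745, plus strand: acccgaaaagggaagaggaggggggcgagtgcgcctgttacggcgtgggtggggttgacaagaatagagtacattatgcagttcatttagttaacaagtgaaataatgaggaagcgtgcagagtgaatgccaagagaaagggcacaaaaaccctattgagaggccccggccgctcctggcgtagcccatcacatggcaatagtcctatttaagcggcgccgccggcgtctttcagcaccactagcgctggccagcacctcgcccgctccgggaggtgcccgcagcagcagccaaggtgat
Gsx2, chr5:75075351-75075650, plus strand: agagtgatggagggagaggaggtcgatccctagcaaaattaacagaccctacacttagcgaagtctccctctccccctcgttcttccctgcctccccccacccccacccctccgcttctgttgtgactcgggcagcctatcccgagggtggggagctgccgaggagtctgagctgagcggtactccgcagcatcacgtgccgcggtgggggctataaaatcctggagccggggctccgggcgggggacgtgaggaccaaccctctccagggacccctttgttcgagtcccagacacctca
This Otx2 start holds TAATTA 3 times, beginning 234, 174 and 154 bases before the start, and another Otx2 start holds it once, 141 bases before. The Emx2 promoter holds it once, 36 bases after the start. So 3 of the 12 promoters have it, 2 of them starts of Otx2, against 5.29% of 32851 promoters of the same length. By gene it is 2 of 8, for which that share per promoter is no measure, since genes differ in their number of starts. The Gsx1 and Gsx2 windows do not hold these letters. Neither do those of Pax6, Emx1 and Nkx2-1, which fell, or of Six3. TAATCC or its other strand GGATTA, the core preferred by Otx-type homeodomains, stood in 1 of the 12, the Otx2 start printed here, against 7.06% of all. The TATA letters TATAAA or TTTATA were in 2 of 12 (13.6% of all), 1 of them Gsx2 at 38 bases before its start, and Gsx1 has none in its window. CCAAT or ATTGG was in 4 of 12 (37.4% of all) and GGGCGG or CCGCCC in 4 of 12 (35.7% of all), with 4 matches in Emx1. All 12 promoters had more CpG than the median promoter, with a ratio of observed to expected CpG of 0.46 to 0.998 against a median of 0.38. These are descriptions of letters in a window and not binding sites.

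Antisense and neighbouring genes gave a further readout of the same loci. Genes within 50000 bases of each of the 9 in the RefSeq table were looked up, a rule set after the values of the 9 genes were seen. The annotation names a gene for each probe set and does not give the strand that its probes read. Emx2os, transcribed from the strand opposite Emx2, read 69.9 and 71.1 at E11.5 and 70.1 and 79.2 at E14.5, and its difference of 0.07 ± 0.24 did not pass (limma, adjusted p = 0.88), beside the fall of Emx2. Pax6os1, a long noncoding RNA that overlaps Pax6, had 28.3 and 31.8 against 22.9 and 35.8 (-0.04 ± 0.36, limma adjusted p = 0.96). Six3os1, which overlaps Six3, had 85.7 and 46.9 against 45.3 and 8.34 and did not pass (-1.13 ± 0.47, limma adjusted p = 0.12), though its groups did not overlap. Six3os1 was called lower once E11.5 replicate 2 was left out (-1.49), and likewise for E14.5 replicate 1 (-1.86). Otx2os1 read between 3.03 and 4.99 and Paupar, near Pax6, between 0.739 and 6.18 on the 4 arrays, under the filter. Whether the antisense genes differ in change from their partners was not tested.

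The protein-coding neighbours did not all follow either. Sfxn5, a mitochondrial transporter gene beside Emx1, rose from 177 and 142 to 436 and 369 (1.27 ± 0.18, limma adjusted p = 0.00075), where Emx1 fell; in the values as deposited Sfxn5 had 0.53 and did not pass. Ehbp1, beside Otx1, was lower with 794 and 735 against 487 and 479 (-0.65 ± 0.14, limma adjusted p = 0.0068), a call that was lost without the variance trend. Elp4, which overlaps the Pax6 locus in the table (0.20 ± 0.18), Six2 beside Six3 (-0.28 ± 0.29) and Chic2 near Gsx2 (0.33 ± 0.14) did not pass on their brightest probe sets. A further probe set of Chic2, 1429050_at, was higher, with 383 and 325 against 580 and 664 (0.79 ± 0.16, limma adjusted p = 0.0046). Its probe sets 1444018_at (0.74 ± 0.24) and 1445911_at (0.26 ± 0.35) did not pass. Chic2 also passed, as higher, with its probe sets averaged (0.53).

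The genes whose profiles lay nearest to each of the 9 were found by the root mean square distance of log2 values, each centred on its own mean, over the 4 arrays and 12269 named genes. With 4 arrays such a likeness is weak, and it says nothing of shared function. For Otx2 the nearest were Mbnl3 (distance 0.070) and Foxp2 (0.092), and for Gsx1 G0s2 (0.058) and Sirt2 (0.11). For Emx1 they were Clvs1 (0.023) and Col26a1 (0.052), for Emx2 Aurkb (0.023) and Enox1 (0.023), and for Pax6 Msantd3 (0.018) and Tmem123 (0.024). Otx1 lay nearest Mrgpra3 (0.025) and Klhl2 (0.029), and Nkx2-1 nearest Eif4e3 (0.048) and Frzb (0.074). Six3 lay nearest Clasrp (0.027) and Mon1a (0.034), and Gsx2 nearest Mak16 (0.021) and Mrpl55 (0.022). None of the genes nearest Six3 and Gsx2 passed, but a like difference follows from choosing genes by the same 4 arrays. Mrgpra3, the nearest to Otx1, did not pass (-0.90 ± 0.37, limma adjusted p = 0.11), though Otx1 was called. The distances of Otx2 and Gsx1 were the longest of the 9 for the nearest gene.

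Other patterning genes were counted in 5 lists beside the 9. Of 16 measured pallial factors 12 fell, none rose and 4 did not pass, with a median of -1.84 against 0.03 for all genes. Over all genes 13.6% were called lower and 14.3% higher. Tbr1, which acts in early cortical neurons (-4.03 ± 0.22), Eomes of the intermediate progenitors (-3.50 ± 0.21) and Fezf2 of deep-layer neurons (-3.44 ± 0.44) had the largest falls on this scale, whose order depends on the pseudocount, and Meis2 did not pass (-0.10 ± 0.15). Of 15 measured subpallial factors 10 fell and 3 rose, beside the same shares of all genes, with a median of -1.79. Isl1 (-5.07 ± 0.23) and Lhx8 (-4.85 ± 0.33), factors of ventral neurons, fell, and Olig1, which also marks oligodendrocyte precursors, rose (4.32 ± 0.15). The hedgehog target Gli1 did not pass (-0.91 ± 0.40, but lower with -1.45 without E14.5 replicate 2). Ptch1, also of the hedgehog pathway, was higher (0.75 ± 0.17, limma adjusted p = 0.011). Isl1, Lhx8, Fgf15, Rspo2 and Wnt8b, named here and below, had E14.5 means below the pseudocount, so the size of their differences depends on it. These, and Tbr1, Eomes, Fezf2, Neurog1, Fezf1, Tfap2c and Dlx6, had E14.5 means below the filter of 27.3. They were tested only through E11.5, which favoured a fall in advance. The counts and medians of the lists that hold them are therefore descriptions only.

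The ligands and antagonists of the patterning centres, which send the signals that set these factors, were mostly not called. Of 13 measured 3 fell, 2 rose and 8 did not pass, with a median of -0.30. These are small counts beside the 13.6% lower and 14.3% higher of all genes, and nothing is read from them about the list. Fgf15 (-5.36 ± 0.25), the Wnt agonist Rspo2 (-4.31 ± 0.29) and Wnt8b of the cortical hem (-2.87 ± 0.34) fell, and the Wnt antagonist Sfrp2 did not pass (-0.30 ± 0.15). Of the 4 measured genes of the anterior neural plate and eye field, Zic1 (-2.30 ± 0.14) and Zic2 (-1.05 ± 0.26) fell and 2 did not pass, among them Vax1 (0.21 ± 0.30). The call of Zic2 was lost without E11.5 replicate 2 (-0.89) and with dim probe sets kept. Rax, Six6, Hesx1, Foxd1, Tbx2 and Vax2 were under the filter. Of 7 measured midbrain, hindbrain and spinal cord factors none was called in the limma fit, against 27.8% of all genes. Their median was 0.05, with Hoxc6 at 0.05 ± 0.37, while 6 more were under the filter. At an unadjusted p under 0.05 the count was also 0. The 7 were dim, with means over the 4 arrays of 27.9 to 54.8 beside the filter of 27.3. A change in them could be missed, and nothing is read from the count.

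**Figure D5:**
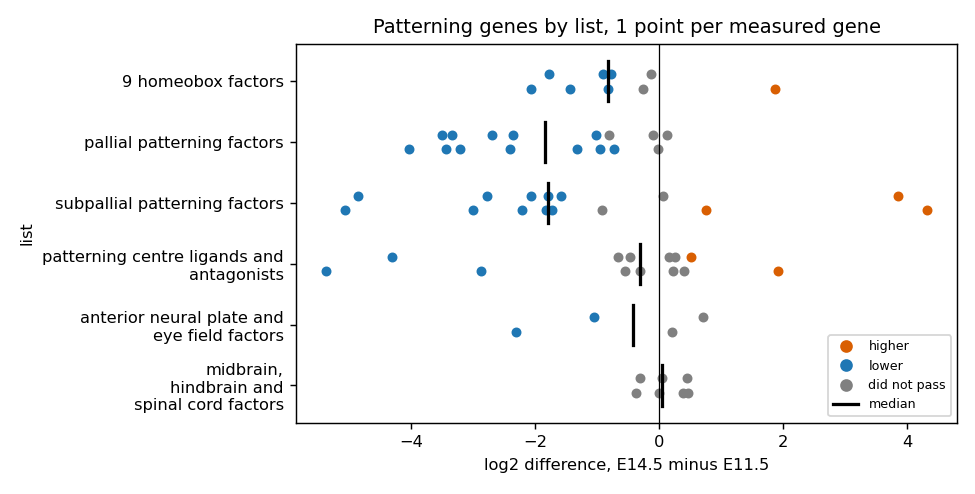
Log2 difference, E14.5 minus E11.5, of each measured gene of the 9 homeobox factors and of 5 further lists, with a line at each list's median and colour for the limma call. The medians are -0.83 for the 9 factors, -1.84 and -1.79 for the pallial and subpallial lists, and 0.05 for the midbrain, hindbrain and spinal cord list. Genes of that last list had signals near the filter. Part of the genes that fell in the pallial and subpallial lists passed the filter only through E11.5.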

How the data were processed

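Total RNA was copied with an oligo-dT primer, labelled with biotin and hybridised to 4 arrays, per the labels' protocols. The authors deposited linear intensities, which GCOS produced per the submitters' processing notes. No source used here gives its version or settings. After 64 control probe sets were set aside, each array was scaled to a common 2% trimmed mean (174). The dimmest 40% of probe sets by mean scaled signal (below 27.3) were left out, which left 27022 to test, and the 25th percentile of all values (12.8) was added before log2. limma 3.58.1 in R 4.3.3 (lmFit, and eBayes with a variance trend, 2 residual and 7.99 prior degrees of freedom) gave E14.5 minus E11.5, with Benjamini-Hochberg adjustment; the fit was tested on simulated data. A gene was represented by its brightest tested probe set. The platform annotation named 1 gene for 34945 probe sets. The number of arrays limits the precision. The 9 genes and the lists were chosen with earlier results of these data known. By rule, the text names the 9 genes, of each list the 3 called genes with the largest difference and the brightest gene that did not pass, the 2 nearest profiles of each of the 9, and the choroid plexus markers. The progenitor markers, Ptch1, the neighbouring genes and genes under the filter were named outside that rule. So were genes and markers listed as tested only through the signals of 1 group. No further lists were tested as sets. Endothelial, mesenchymal and erythroid markers had 1 of 3, 0 of 7 and 0 of 3 measured genes higher and 0, 3 and 2 lower. Over all genes 14.3% were higher and 13.6% lower. The called endothelial and erythroid genes passed the filter only through the group where they were high. Scaling, filter, pseudocount, variance trend, averaging of probe sets, a replicate block and leaving out each array were tried as alternatives.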

Additional observations from a re-analysis of the deposited data

How the results depend on the processing

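Among the 9 genes the counts were 1 higher and 4 to 6 lower under every alternative, with 4 lower without E11.5 replicate 2 and without the variance trend. Only Otx1 and Nkx2-1 lost a call, except that Nkx2-1 was not tested under the stricter filter. Without the variance trend 1150 genes were higher and 1101 lower, against 1850 and 1756. In the values as deposited 255 genes were higher. Leaving out 1 array, which assumes that the lone array of a group varies like those of the other, gave 1406 to 1903 higher and 1423 to 1708 lower. Arrays of the same replicate number did not deviate together (r = 0.0041 across probe sets, for 2 pairs), and with the number as a replicate block 2016 genes were higher and 1933 lower, with 1 and 6 among the 9 genes. Of the values of named genes under alternatives, 647 kept direction and side of the threshold, 35 lost a call, 16 gained one and 27 changed sign, all of genes that did not pass. The sign changed in the values as deposited for Vax1 (-0.48), Hoxc6 (-0.58), Lmx1a (-0.32), Kcnj13 (-0.38), Chic2 (-0.44), Elp4 (-0.55), Emx2os (-0.59). With probe sets averaged it changed for Six3 (0.33), Elp4 (-0.21). Over the 4 fits without 1 array the values crossed 0 for Mak16 (-0.28 to 0.053), Mrpl55 (-0.30 to 0.092), Kcnj13 (-0.31 to 0.60), Vax1 (-0.23 to 0.64), Hoxc6 (-0.49 to 0.59), Clic6 (-0.39 to 0.0024), Lmx1a (-0.19 to 0.59), Msx1 (-0.41 to 0.11), Pax6os1 (-0.26 to 0.18), Gsx2 (-0.32 to 0.045), Meis2 (-0.29 to 0.089), Emx2os (-0.0075 to 0.14). The cause was not tested. Genes with signals near the pseudocount, such as Nkx2-1 and the E11.5 level of Gsx1, had the largest SEs of the 9 genes.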
